A study of Mus musculus with 21 samples.

Results

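The let-7 3p arms are the small RNAs cut from the 3′ side of the let-7 hairpins, opposite the let-7 miRNAs themselves. The 8 arms described here (mmu-let-7b-3p, mmu-let-7c-1-3p, mmu-let-7d-3p, mmu-let-7e-3p, mmu-let-7f-1-3p, mmu-let-7f-2-3p, mmu-let-7g-3p and mmu-let-7i-3p) were picked from the table by name, out of 1647 listed miRNAs, at a point when earlier results of these data were known. They are 8 of the 9 let-7 3p arms listed, and the other, let-7a-2-3p, was not among the names. Changes of these arms over time may therefore have been in view when the arms were picked, so the tests below, run over all miRNAs of an organ, describe the arms and are not independent support for their choice.

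The study followed the development of the auditory system of wild-type, untreated mice at 3 time points, embryonic day 16 (E16), the day of birth (P0) and postnatal day 16 (P16), by small-RNA sequencing of 21 libraries. Cochlear libraries (E16 n = 2, P0 n = 4, P16 n = 4) came from the sensory epithelium of pooled inner ears of C57BL/6JOlaHsd mice of both sexes. Superior olivary complex (SOC) libraries (E16 n = 4, P0 n = 4, P16 n = 3) came from brainstem tissue of several C57Bl6/J animals of both sexes pooled per sample. RNA isolation, library kit, strain and depth all went with the organ, so levels were compared within an organ and only changes over time between organs. The pooled tissue also means that fewer cells of a type and less RNA per cell cannot be told apart.

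let-7 miRNAs are known as timing factors of development that rise as tissues leave proliferation and differentiate, and in the inner ear they are known as antagonists of the RNA-binding protein LIN28B in the timing of progenitor differentiation. Dicer releases both arms of each let-7 hairpin as a duplex. The 5p arm is usually kept in Argonaute as the guide and the 3p arm usually discarded as the passenger strand, so the balance of the 2 arms is a readout of strand choice and stability as well as of hairpin processing.

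The sequences show that the 3p arms differ in their seed, the stretch that pairs with targets, where the 5p arms share one. All 8 names matched a RefSeq mature miRNA (GRCm38.p6), printed 5′ to 3′ with the seed, bases 2 to 8, in capitals:
mmu-let-7b-3p: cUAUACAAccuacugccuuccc
mmu-let-7c-1-3p: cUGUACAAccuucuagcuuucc
mmu-let-7d-3p: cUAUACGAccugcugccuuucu
mmu-let-7e-3p: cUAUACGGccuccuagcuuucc
mmu-let-7f-1-3p: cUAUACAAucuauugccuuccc
mmu-let-7f-2-3p: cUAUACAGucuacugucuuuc
mmu-let-7g-3p: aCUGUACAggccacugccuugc
mmu-let-7i-3p: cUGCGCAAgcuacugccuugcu
These 8 arms carried 7 different seeds. Only let-7b-3p and let-7f-1-3p shared one, UAUACAA, which 5 of the 1679 mature miRNAs in the RefSeq table carry. Pairs of 3p arms differed by 2 to 11 edits (median 6 over 28 pairs). The last bases split the arms too, since CUAGCUUUC stands near the end of let-7c-1-3p and let-7e-3p but in no other member, and in 4 of the 1679 mature miRNAs (0.238%).

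The 5p arms of the hairpins named most often below were taken from the same table, with the seed in capitals, to show what the 3p arms are compared with:
mmu-let-7b-5p: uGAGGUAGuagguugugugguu
mmu-let-7c-5p: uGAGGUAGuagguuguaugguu
mmu-let-7d-5p: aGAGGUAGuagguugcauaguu
mmu-let-7e-5p: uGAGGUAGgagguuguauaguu
These 4 and the other 3 5p arms shared the seed GAGGUAG, which 11 of the 1679 mature miRNAs carry, and pairs differed by 1 to 6 edits (median 3 over 21 pairs). let-7d-5p is the one 5p arm that opens with A rather than U. let-7c-5p and let-7f-5p can each come from 2 hairpins, and their counts could not be assigned to one of them. The hairpins of the 2 members whose changes turned out opposite in direction are printed with both mature arms in capitals, the 5p arm first:
mmu-let-7b hairpin: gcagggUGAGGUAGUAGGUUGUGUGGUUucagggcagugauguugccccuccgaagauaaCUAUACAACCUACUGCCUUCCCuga
mmu-let-7c-1 hairpin: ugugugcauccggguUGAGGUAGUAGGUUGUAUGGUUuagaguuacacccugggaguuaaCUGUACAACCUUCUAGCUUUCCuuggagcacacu

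The hairpins lie on 8 sites of 7 chromosomes (GRCm38.p6, host transcripts from GENCODE vM21). The let-7b hairpin (chr15:85707319-85707403, plus strand) lies in an exon of the non-coding Lncppara transcript, 621 bases from the let-7c-2 hairpin. The let-7c-1 hairpin (chr16:77599657-77599750, plus strand) lies in an intron of the non-coding Mir99ahg, 656 bases from the miR-99a hairpin. The let-7d (chr13:48536012-48536114, minus strand) and let-7f-1 (chr13:48537829-48537917, minus strand) hairpins lie 1714 bases apart in exons of one lincRNA, 6720427I07Rik. The let-7e hairpin (chr17:17830352-17830444, plus strand) sits in an intron of Spaca6, 367 bases from the miR-125a hairpin. The let-7f-2 hairpin (chrX:151912346-151912428, plus strand) sits in an intron of Huwe1, 785 bases from the miR-98 hairpin. The remaining hairpins are let-7g (chr9:106178840-106178927, plus strand), in an intron of Wdr82, and let-7i (chr10:122985640-122985724, minus strand), in an exon of the D630033A02Rik pseudogene transcript.

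Levels are given as counts scaled to a common total, or CPM, after TMM scaling (trimmed mean of M values), computed from the deposited raw counts. Total counts were 124400 to 447419 per cochlear library and 8309669 to 18053698 per SOC library, so 3 counts, the limit that a count of 0 allows, equalled 6.71 to 24.1 CPM of the library total in the cochlea and 0.166 to 0.361 CPM in the SOC. Such limits, and the intervals of shares below, cover counting error only. The SOC libraries fell into 3 sets by the shares of miR-99b-5p and miR-191-5p that cut across the time points: set A (E16 replicates 2 and 3, P0 replicates 2 and 3), set B (E16 replicates 1 and 4, P0 replicate 1, P16 replicate 1) and set C (P0 replicate 4, P16 replicates 2 and 3). No set held all 3 time points with more than 1 P0 and 1 P16 library, and miR-99b is encoded beside let-7e, so the sets are not independent of that member. Fits below with the set as a covariate use a grouping drawn from these same counts, so their FDRs may be too small. In the SOC the neuronal marker list (5 of 5 miRNAs counted) summed to 42783 to 100636 CPM at E16, 47399 to 112479 at P0 and 28188 to 35820 at P16. The hair-cell list (miR-183, miR-96 and miR-182, all counted) summed to 97018 to 147946 CPM in the libraries labelled SOC E16, then to 4236 to 29682 at P0 and 592 to 2901 at P16, while in the cochlea it summed to 69631 to 71872 CPM at E16 and 10805 to 40102 later. The libraries labelled SOC E16 thus had hair-cell sums above those of cochlear ones, across kits that differ between the organs. Their neuronal sums stood above the 4935 to 5776 CPM of cochlear E16 libraries, and their epithelial sums, given next, below the 19611 to 29053 CPM there. The paper reports that miR-96 was markedly repressed as the SOC matured. What tissue these libraries hold was not tested and stays in doubt, and every SOC contrast with E16 below carries that doubt. The epithelial list (7 listed) in the SOC summed to 930 to 1855 CPM at E16 and 45.6 to 201 later, with miR-200a-3p at 0 at P0, and the muscle list (3 of 4 listed) to 96.9 to 276 CPM at E16 and 9.65 to 28.2 later, with miR-133a-3p at 0 at E16. The oligodendrocyte list (2 of 2 counted) there summed to 167 to 541 CPM before P16 and 2921 to 6418 at P16. The SOC vessel list (1 of 2 listed) summed to 769 to 1230 CPM at E16, 834 to 7215 at P0 and 852 to 6459 at P16. The blood list (3 counted) summed to 56.3 to 83.9, 32.5 to 138 and 86.1 to 210 CPM at these ages. The leukocyte list (3 counted) summed to 42.5 to 79.7, 16 to 92 and 14.8 to 34.8 CPM.

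In the cochlea most marker lists were highest at E16. The neuronal list summed to 4935 to 5776 CPM at E16 and 556 to 1533 later, and the epithelial list (7 of 7 counted) to 19611 to 29053 CPM and 1618 to 8075. The leukocyte list (3 listed, miR-142a-5p at 0 at P0) summed to 1953 to 2094 CPM at E16 and 204 to 752 later, the vessel list (1 of 2 listed) to 8037 to 8077 CPM and 633 to 6850, and the blood list (3 listed, miR-451a and miR-144-3p at 0 after E16) to 210.2 to 228 CPM and 0 to 30.1. The muscle list (3 of 4 listed, miR-133a-3p at 0) summed to 711 to 4487 CPM at P16 and 187 to 706 before, and the oligodendrocyte list (2 listed, miR-219a-2-3p at 0 at P0) to 191 to 534 CPM at P16 and 5.5 to 61.4 before. These lists moved with the time points in both organs, and their part in the changes below was not tested.

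let-7d-3p was far above the other members in both organs. It ranked 8th of 1647 miRNAs by mean CPM in the cochlea and 75th in the SOC, and gave 79.5% to 90.2% of all counts of the 8 arms in cochlear libraries and 59.1% to 80.3% in SOC libraries. let-7b-3p came next over all libraries of each organ, ranked 49th in the cochlea and 155th in the SOC. Together the 8 arms made up 1.57% to 3.68% of cochlear and 0.0449% to 0.118% of SOC counts. All members are 21 or 22 bases long.

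Below let-7d-3p, the order of the members shifted with age. In the cochlea at E16, let-7c-1-3p averaged 416 ± 61.1 CPM (SD, n = 2) and let-7b-3p 345 ± 50.4 CPM (SD, n = 2), with overlapping libraries. let-7e-3p at 276 ± 67.1 CPM (SD, n = 2) and let-7f-1-3p at 275 ± 30.1 CPM (SD, n = 2) overlapped as well, and let-7i-3p was lower at 171 ± 20.1 CPM (SD, n = 2). By P16 let-7b-3p stood alone below let-7d-3p, and let-7e-3p, let-7f-1-3p, let-7c-1-3p and let-7i-3p ran into each other. In the SOC the order at E16 was let-7d-3p, let-7b-3p, let-7e-3p, let-7i-3p, let-7f-1-3p, let-7c-1-3p and let-7g-3p. Of the neighbours in that order, let-7e-3p and let-7i-3p overlapped between libraries, as did let-7f-1-3p and let-7c-1-3p, and let-7c-1-3p and let-7g-3p.

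2 members were at or near 0. let-7f-2-3p had 0 to 3 counts in each cochlear library and 0 to 7 in each SOC library, and it was not tested in the SOC. let-7g-3p had 5 and 4 counts at E16 in the cochlea, 0, 4, 0 and 0 at P0 and 1, 0, 0 and 0 at P16. Both passed the cochlear filter on low counts through E16 and no fold change is given for them there. In the SOC, where depth was greater, let-7g-3p was measurable at 3.58, 7.87, 8.3 and 4.86 CPM at E16, 11.8, 9.72, 8.23 and 7.91 CPM at P0 and 8.94, 8.69 and 9.86 CPM at P16. Those SOC ranges overlapped between E16 and P0 but not between E16 and P16, and no contrast of let-7g-3p passed the test (lowest edgeR FDR 0.246).

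A change was called where edgeR's quasi-likelihood test gave a Benjamini-Hochberg adjusted p (FDR) under 0.05 over all miRNAs tested in the organ, the fold change was over 1.5, and the libraries of the 2 time points did not overlap. In the cochlea, let-7b-3p and let-7d-3p rose from E16 to P0, 2 of 8 members, where 7.81% of the 896 miRNAs tested rose. No member fell at P0, where 16.6% of all fell. Between E16 and P16, 2 members rose (background 10.9%) and 1, let-7c-1-3p, fell (18.6%). Between P0 and P16, 1 rose (let-7b-3p; background 3.91%) and 1 fell (let-7c-1-3p; 6.58%). Over the 6 members with more than 7 counts in some cochlear library, the median log2 change was 0.95, 0.36 and 0.24 in the 3 contrasts, beside 0.00, -0.09 and 0.05 over all miRNAs tested. With let-7f-2-3p and let-7g-3p, at or near 0 after E16, it was 0.34, -0.40 and 0.15, so its sign at P16 against E16 turns on those 2.

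let-7b-3p, from the hairpin beside let-7c-2, rose at each step in the cochlea. Its levels were 381 and 309 CPM at E16, 1092, 1467, 2229 and 1906 CPM at P0 and 5471, 7124, 3075 and 2603 CPM at P16. No library of a later time point reached down to an earlier one, although P16 replicates 1 and 2 were above replicates 3 and 4. The log2 change from E16 was 2.28 (SE 0.455, FDR 9.62e-06) at P0 and 3.73 (SE 0.494, FDR 2.07e-12) at P16, a 13.2-fold rise, and 1.45 (SE 0.336, FDR 0.000252) from P0 to P16 (edgeR, Benjamini-Hochberg). All 3 calls held in each of the 8 alternative analyses and without any one library.

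let-7d-3p, the most abundant member, rose from E16 to P0, and no later change was called. Its levels were 10282 and 12123 CPM at E16, 20255, 26631, 32162 and 27989.6 CPM at P0 and 30874, 34446, 27678 and 27326 CPM at P16. Both E16 libraries were below all later ones, while P0 and P16 overlapped. The log2 change from E16 was 1.26 (SE 0.432, FDR 0.0179) at P0 and 1.42 (SE 0.436, FDR 0.00537) at P16, and the P16 to P0 contrast did not pass (FDR 0.799; edgeR, Benjamini-Hochberg). These calls rested on the 2 E16 libraries. Without E16 replicate 1 the edgeR FDR was 0.173 at P0 and 0.107 at P16, and without E16 replicate 2 it was 0.152 and 0.0904, with log2 changes of 1.17, 1.25, 1.25 and 1.34. The call at P0 was also lost with library totals alone, with the replicate number as a block and in one fit of both organs (edgeR FDR 0.111, 0.0579 and 0.130), and the call at P16 in the last of these (0.0508). let-7b-3p and let-7d-3p varied together over the 10 cochlear libraries (Pearson r 0.926 of log2 levels, which share library and depth), with r 0.286 over the 11 SOC libraries.

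let-7c-1-3p, from the miR-99a transcript, took the opposite course after birth. Its levels were 372 and 459 CPM at E16, 417, 570.1, 1677 and 709 CPM at P0 and 209, 319, 73.1 and 126 CPM at P16. P0 replicate 3 was the highest, the P0 and E16 libraries overlapped, and every P16 library was below every earlier one. The log2 change was -2.21 (SE 0.384, FDR 3.15e-07) from P0 to P16 and -1.19 (SE 0.436, FDR 0.0229) from E16 to P16, while P0 against E16 was not called (1.02, SE 0.453, FDR 0.0822; edgeR, Benjamini-Hochberg). The fall from E16 to P16 was lost without P16 replicate 3 (log2 -0.93, edgeR FDR 0.116) and without E16 replicate 2 (-1.26, FDR 0.0974), and in 4 of 8 alternatives, DESeq2 among them (log2 -1.12, FDR 0.121). The fall from P0 to P16 was called in all alternatives and without any one library.

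The other 3 measurable members gave no call in the cochlea. let-7e-3p, from the miR-125a transcript, was at 228 and 323 CPM at E16, 562, 541, 341 and 593 CPM at P0 and 306, 872, 252 and 245 CPM at P16, where replicate 2 stood above the other libraries. let-7f-1-3p, encoded beside let-7d, was at 296 and 254 CPM at E16, 139, 156, 392 and 277 CPM at P0 and 510.4, 420.5, 139 and 119 CPM at P16. Its libraries spread as widely within P16 as over all ages, unlike those of let-7d-3p from the same transcript. let-7i-3p was at 185 and 156 CPM at E16, 58.9, 132, 6.42 and 77.6 CPM at P0 and 61.2, 148, 86.3 and 66.9 CPM at P16, with both E16 libraries above all later ones. let-7i-3p missed the threshold with TMM scaling (edgeR FDR 0.0775 at P0 and 0.195 at P16) and was called lower with library totals alone (log2 -1.71, FDR 0.0162, and -1.48, FDR 0.0373). Against library totals, TMM scaling raised the members' log2 changes by a median of 0.46 at P0 and 0.56 at P16. The sign of let-7e-3p and let-7f-1-3p at P16 changed between these scalings.

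**Figure D1:**
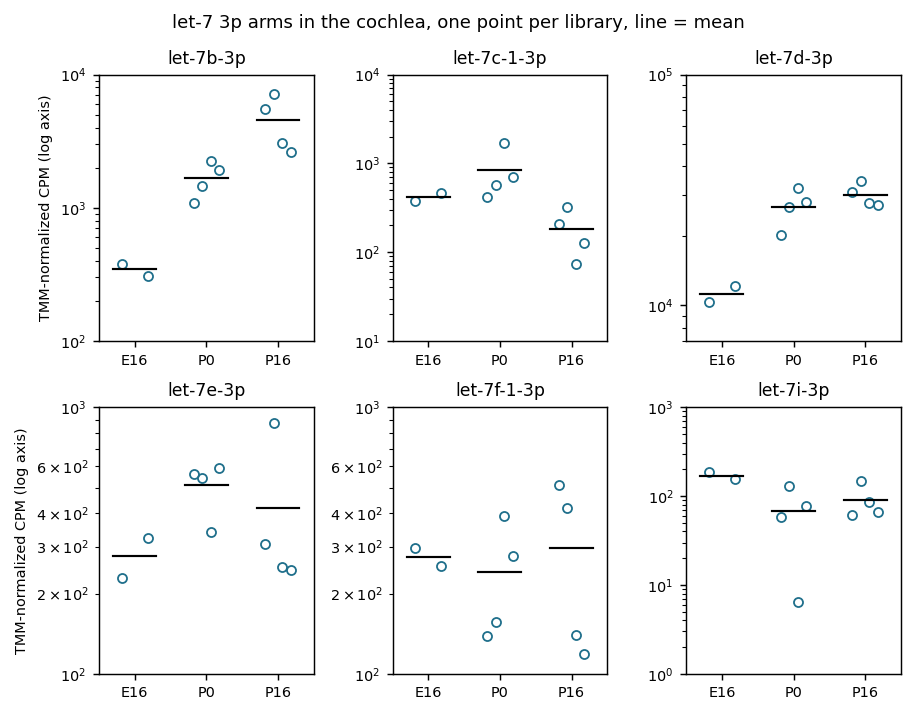
TMM-normalized CPM (log axis) of the 6 measurable let-7 3p arms in each cochlear library at E16, P0 and P16; circles are libraries and lines are means. let-7b-3p climbs at each step, let-7d-3p is higher at P0 and P16 than at E16, and let-7c-1-3p is lowest in the 4 P16 libraries.

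In the SOC no member changed from E16 to P0 (0 of 7 tested), where 2.45% of 694 miRNAs rose and 4.18% fell; at an unadjusted p under 0.05 the count was 0, and DESeq2 called 0. From E16 to P16, let-7b-3p rose (1 of 7, background 21.2%) and let-7c-1-3p fell (1 of 7, background 20%). From P0 to P16, let-7b-3p rose (1 of 7, background 8.07%) and no member met all criteria for a fall (background 8.07%). The members' median log2 change was 0.02, 0.45 and -0.01 in the 3 contrasts, beside 0.17, 0.08 and -0.15 over all miRNAs.

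let-7b-3p in the SOC was at 83.6, 67.3, 90.6 and 92.8 CPM at E16, 125, 125, 118 and 84.3 CPM at P0 and 293, 208 and 197 CPM at P16. E16 and P0 overlapped through P0 replicate 4, and all 3 P16 libraries were above every earlier one. The log2 change was 1.48 (SE 0.335, FDR 0.00471) from E16 to P16, a 2.79-fold rise, and 1.04 (SE 0.333, FDR 0.0477) from P0 to P16 (edgeR, Benjamini-Hochberg). Within set B it went from a mean of 88.2 CPM at E16 (n = 2) to 293 CPM at P16 (n = 1), and within set C from 84.3 CPM at P0 (n = 1) to 203 CPM at P16 (n = 2). With the set as a covariate the edgeR FDR was 2.66e-05 from E16 to P16 and 0.000812 from P0 to P16, within ranges of 1.61e-06 to 0.0381 and 0.000812 to 0.247 over the alternatives. The sets were drawn from these same counts, and only set B held both E16 and P16 libraries, with 1 at P16. The P0 to P16 call sat at the threshold: it was kept in 6 of 10 alternatives and, of the 11 fits without a library, only in the one without P0 replicate 4, with edgeR FDRs of 0.041 to 0.0976.

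let-7c-1-3p in the SOC was at 8.62, 7.33, 9.39 and 7.12 CPM at E16, 11.3, 8.33, 3.84 and 1.05 CPM at P0 and 1.98, 0.318 and 0.479 CPM at P16. These levels rest on 147, 95, 94 and 82 counts at E16, 250, 90, 49 and 9 counts at P0 and 21, 3 and 5 counts at P16. All P16 libraries were below all E16 ones, but P0 replicate 4 (set C) was already below P16 replicate 1 (set B). The log2 change from E16 to P16 was -3.11 (SE 0.819, FDR 0.0101), 8.64-fold lower, and from P0 to P16 -2.72 (SE 0.807, FDR 0.0377), not called because the libraries overlapped (edgeR, Benjamini-Hochberg). Within set B it went from 7.87 CPM at E16 to 1.98 CPM at P16, and within set C from 1.05 CPM at P0 to 0.398 CPM at P16. Set C was 2.72 log2 units below set B in the fit with both terms, in which the E16 to P16 change was -1.97 (edgeR FDR 0.0073, over a range of 0.000207 to 0.175 in the alternatives). The call was lost only when the SOC counts were thinned to cochlear depth, at a log2 change of -3.17 (edgeR FDR 0.175), and let-7c-1-3p was not tested where at least 10 counts were asked of every library.

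let-7d-3p, called in the cochlea, was at 317, 553, 678 and 669 CPM at E16, 532, 799, 798 and 342 CPM at P0 and 1027, 416 and 394 CPM at P16 in the SOC. The time points overlapped throughout, and P16 replicate 1 was over 2-fold above the other P16 libraries. let-7e-3p was at 32.5, 42.4, 58.4 and 37.4 CPM at E16, 29.3, 40.5, 41.5 and 4.88 CPM at P0 and 34.6, 5.51 and 3.92 CPM at P16. Its low libraries were P0 replicate 4 and P16 replicates 2 and 3, the 3 libraries of set C, whereas P16 replicate 1 lay within the E16 range. Set C was 2.73 log2 units below set B for let-7e-3p in the fit with both terms, and let-7e-3p was called lower at P16 than at E16 once P16 replicate 1 was left out (log2 -3.06, edgeR FDR 0.00687; 0.141 with it). let-7e-3p and let-7c-1-3p varied together over the 11 SOC libraries (Pearson r 0.885 of log2 levels, libraries and sets shared). Over the 10 cochlear ones they did so less closely (r 0.387). Both were lower in set C than in set B. Within set B, from E16 (n = 2) to P16 (n = 1), let-7e-3p was nearly level (log2 -0.014) while let-7c-1-3p fell (-1.97). Any part of the CUAGCUUUC they share near the 3′ end was not tested.

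let-7f-1-3p was at 11.1, 11.6, 11.1 and 8.6 CPM at E16, 16.1, 10.6, 10.9 and 5.12 CPM at P0 and 24.5, 9.65 and 9.38 CPM at P16, with P16 replicate 1 again the highest. let-7i-3p was at 18.1, 23.1, 35.1 and 21.2 CPM at E16, 31.1, 17.3, 12.6 and 35.1 CPM at P0 and 35, 41.6 and 51.5 CPM at P16, and here replicate 1 was the lowest of P16. Neither member passed the test in any SOC contrast (lowest edgeR FDR 0.453 and 0.145), and the sign of let-7i-3p at P0 changed with the scaling.

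**Figure D2:**
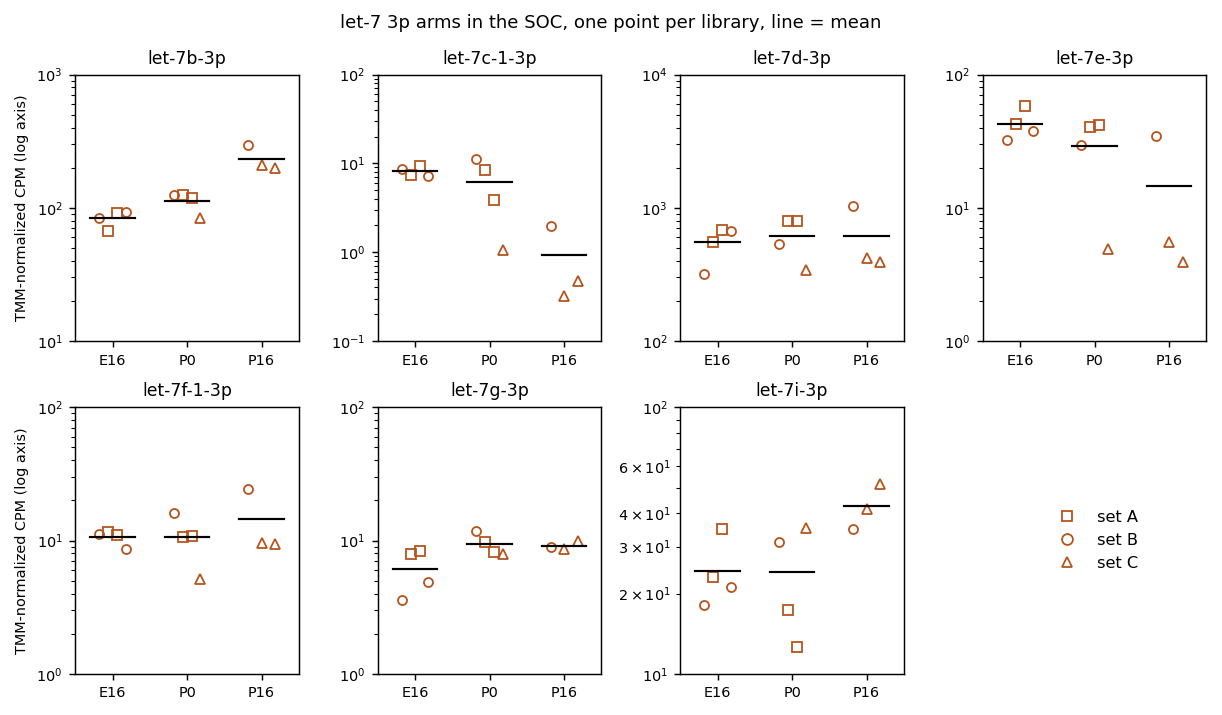
TMM-normalized CPM (log axis) of the 7 measurable let-7 3p arms in each SOC library at E16, P0 and P16, with library sets A, B and C marked and lines for means. let-7b-3p is highest in the 3 P16 libraries, let-7c-1-3p falls to 1.98 CPM and below at P16, and let-7e-3p is low in the 3 libraries of set C.

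The change of let-7b-3p from E16 differed between the organs. Its rise was 1.92 log2 units (SE 0.628) smaller in the SOC than in the cochlea at P0 (edgeR interaction FDR 0.0475) and 2.39 units (SE 0.656) smaller at P16 (FDR 0.0149), over 545 miRNAs tested in both organs, of which 11.9% and 16.9% differed. The difference at P0 was lost in 4 of 7 alternatives (edgeR FDR up to 0.416) and in 11 of 21 fits without a library, namely without cochlear E16 replicates 1 or 2, cochlear P0 replicates 2, 3 or 4, any SOC E16 replicate, or SOC P0 replicates 2 or 3 (FDR 0.0583 to 0.211). The difference at P16 was lost in 2 of 7 and in the fits without either cochlear E16 library (edgeR FDR 0.0556 and 0.103). No other member differed between the organs (lowest edgeR interaction FDR 0.117 for let-7d-3p at P16). let-7c-1-3p was lower at P16 than at E16 in both organs, and its organ difference at P16 was -2.11 log2 units (SE 1.06), with an FDR of 0.175 in edgeR that leaves its size unresolved.

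The 5p arms of the same hairpins gave the context for these changes. In both organs the 5p arms that passed the test were all higher later and none was lower, out of 7 tested. Over all miRNAs, 16.6% fell from E16 to P0 and 18.6% to P16 in the cochlea, and 4.18% and 20% in the SOC. In the cochlea let-7b-5p and let-7c-5p rose at P0 (2 of 7, background 7.81%), and these and let-7d-5p rose by P16 (3 of 7, background 10.9%). In the SOC let-7b-5p and let-7c-5p rose at P0 (2 of 7, background 2.45%), and these with let-7d-5p and let-7g-5p rose by P16 (4 of 7, background 21.2%). let-7b-5p averaged 794 ± 165 CPM (SD, n = 2) at E16 and 11831 ± 3923 CPM (SD, n = 4) at P16 in the cochlea, and 1.39 ± 0.311 CPM (SD, n = 4) and 46.7 ± 26.6 CPM (SD, n = 3) in the SOC. The pairs thus went the same way for let-7b in both organs and for let-7d in the cochlea, and opposite ways for let-7c. let-7c-5p averaged 3687 ± 858 CPM (SD, n = 2) at E16 and 28379 ± 12821 CPM (SD, n = 4) at P16 in the cochlea, a log2 change of 2.94 (SE 0.473, FDR 1.09e-08), where let-7c-1-3p changed by -1.19. In the SOC let-7c-5p averaged 2.28 ± 0.553 CPM (SD, n = 4) and 35.9 ± 20.1 CPM (SD, n = 3), a change of 3.97 (SE 0.776, FDR 0.00198), where let-7c-1-3p changed by -3.11 (edgeR, Benjamini-Hochberg). These SOC rises of 5p arms went with the library set. P0 replicate 4 of set C was already at 42.2 CPM for let-7c-5p and 41.6 CPM for let-7b-5p, against at most 8.38 and 4.25 CPM in the other P0 libraries. Set C lay 2.07 log2 units above set B for let-7c-5p and 2.62 above for let-7b-5p in the fit with both terms. Within set B, let-7c-5p went from 2.48 CPM at E16 to 15.1 CPM at P16 and let-7b-5p from 1.25 to 17.4 CPM, and within set C from 42.2 CPM at P0 to 46.4 CPM at P16 and from 41.6 to 61.4 CPM. Since let-7c-5p also comes from the let-7c-2 hairpin, its rise cannot be assigned to the hairpin that yields let-7c-1-3p.

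**Figure D3:**
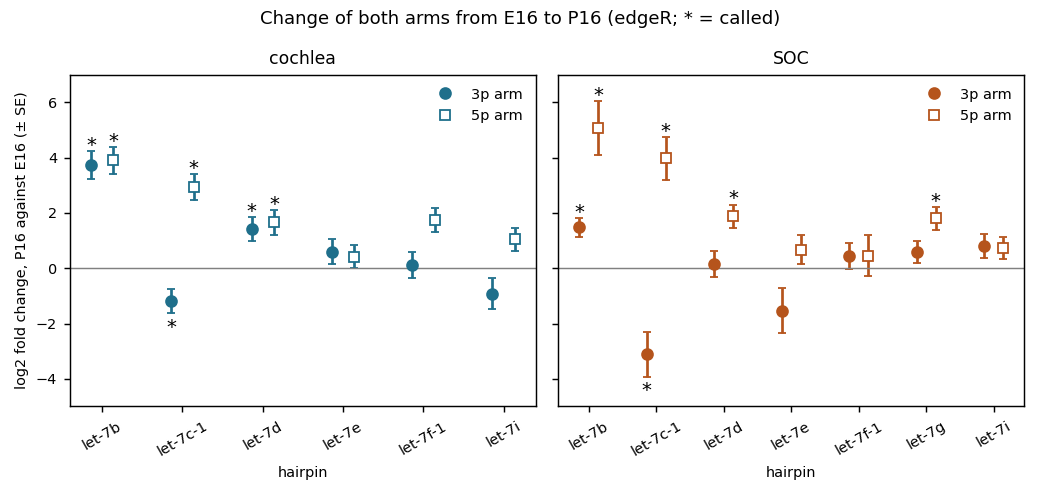
log2 fold change from E16 to P16 (edgeR, bars ± SE) of the 3p arm (filled) and 5p arm (open) of each hairpin in the cochlea and the SOC; asterisks mark called changes. The 5p arm lies above the 3p arm for let-7c in both organs, and for let-7b the 2 arms lie together in the cochlea (3.73 and 3.90) and apart in the SOC (1.48 and 5.06).

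The share of the 3p arm, 3p counts over the sum of both arms, set these hairpins apart. For let-7c-1, let-7f-1 and let-7f-2 the 5p counts can also come from another hairpin, so their shares and ratios are not those of a single hairpin. In the cochlea the 3p share was nearest to even for let-7d, at 49.1% ± 3.18 (SD) at E16, 53.5% ± 5.32 at P0 and 46.7% ± 13.3 at P16. For every other hairpin there the 5p arm was on average the larger. The let-7b share was 30.7% ± 7.52, 29.1% ± 1.91 and 28.9% ± 14.7 at the 3 time points. The let-7c-1 share averaged 10.2% ± 0.8 at E16, then 5.13% ± 3.11 at P0, and 0.968% ± 1.09 at P16. Shares of let-7e, let-7f-1 and let-7i averaged 2.86% to 19.0% at any time point, and those of let-7g and let-7f-2 at most 0.214%.

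In the SOC the 3p arm was on average the larger at every time point for let-7b, let-7e and let-7f-1, and at E16 for let-7c-1. The let-7e share was 87.8%, 92.4%, 92.6% and 92.1% at E16, 88.9%, 91.8%, 93% and 34.4% at P0 and 91.5%, 35.4% and 40.6% at P16, so its 5p arm was the larger in the 3 libraries of set C. The let-7b share was 98.5%, 97.3%, 98.7% and 98.7% at E16, 96.7%, 97.4%, 97.4% and 66.9% at P0 and 94.4%, 79.6% and 74% at P16. The let-7c-1 share was 77.4%, 83.3%, 77.7% and 74.5% at E16, 62.3%, 65.2%, 31.4% and 2.42% at P0 and 11.6%, 0.838% and 0.861% at P16. All P16 libraries were below all E16 libraries for both hairpins, and P0 replicate 4 was apart from the other P0 libraries. At the ends, 95% Wilson intervals for let-7c-1 were 75.4% to 89.1% in E16 replicate 2 and 0.368% to 2% in P16 replicate 3. The 5p counts behind these shares were low, with 12 to 725 counts per SOC library for let-7b-5p, 19 to 576 for let-7c-5p, 34 to 95 for let-7e-5p and 2 to 44 for let-7f-5p, against 5597 to 32726 for let-7d-5p, the 5p arm with a different first base. How the counting treated reads that match several let-7 miRNAs is not given in the sources used here, and its part in these shares was not tested.

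**Figure D4:**
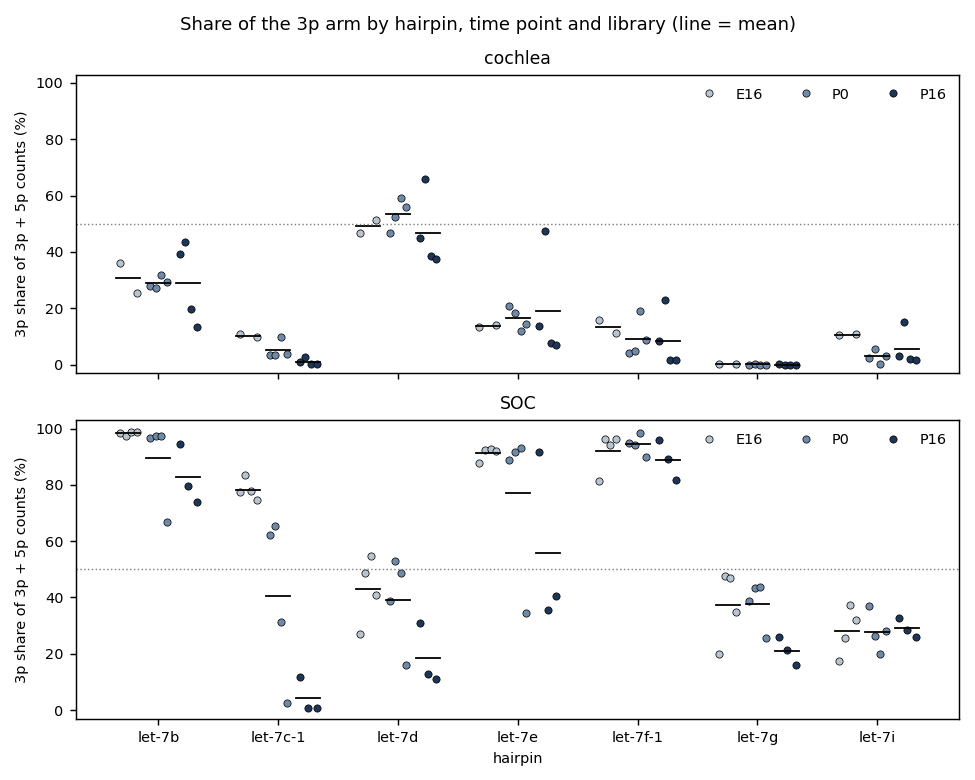
Share of the 3p arm (percent of 3p plus 5p counts) for each let-7 hairpin and library at E16, P0 and P16 in the cochlea and the SOC; points are libraries, lines are means and the dotted line is 50%. let-7c-1 falls to a mean of 0.968% in the cochlea and 4.43% in the SOC at P16, with 5p counts that can also come from the let-7c-2 hairpin. let-7b is mostly 5p in the cochlear libraries and mostly 3p in the SOC ones. Kit, strain and depth went with the organ, so shares are not compared between the organs.

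The log2 ratio of 3p to 5p counts was tested with limma over all hairpins with both arms counted (197 in the cochlea and 338 in the SOC). In the cochlea no member's ratio was called at P0, where 15.7% of pairs were called. The let-7c-1 ratio was lower at P16 than at E16 (-4.18, SE 0.855, FDR 0.0041; 1 of 8 members, background 19.8% lower) and than at P0 (-2.96, SE 0.698, FDR 0.016; 1 of 8, background 5.08% lower). In the SOC no ratio was called at P0 (background 0%), 2 of 7 members were lower at P16 than at E16 (background 6.8% lower), and none was called from P0 to P16 (background 2.66%). The 2 were let-7c-1 (-7.27, SE 1.36, FDR 0.00748) and let-7b (-3.37, SE 0.984, FDR 0.0429; limma, Benjamini-Hochberg). Since let-7c-5p also comes from the let-7c-2 hairpin, the let-7c-1 ratio changes cannot be assigned to the arm balance of the let-7c-1 hairpin.

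The let-7c-1 ratio calls in the cochlea were lost without either E16 library (limma FDR 0.0514 and 0.0543) or, for P16 against P0, without P0 replicate 3 (0.0619). The let-7b ratio call in the SOC was kept in only 3 of 11 fits without a library, those without P0 replicate 2, P0 replicate 4 or P16 replicate 1. That ratio went from -3.37 to -1.16 with the library set as a covariate (limma FDR 0.187, over a range of 0.000145 to 0.355 in the alternatives), whereas let-7c-1 remained called at -4.13 (FDR 0.00829). No member's ratio changed differently between the organs (lowest limma FDR 0.150), where 4.84% of 186 pairs differed at P0 and 5.91% at P16. Over the 6 members with more than 7 counts in some cochlear library, the median ratio change was -0.48, -0.93 and -0.27 log2 units in the 3 cochlear contrasts, beside -0.22, -0.23 and -0.16 over all pairs. In the SOC it was -0.30, -1.86 and -1.56 over 7 members, beside -0.09, -0.14 and 0.00.

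In single libraries the balance of most let-7 hairpins was shifted together. Each ratio was set against the mean of its time point, that library included, for members with over 7 counts in at least 1 library of the organ. A library far above this mean therefore puts others of its age below it. Members of a library share that library and are not independent of each other. In cochlear P16 replicate 2 all 6 members lay above that mean, by a median of 2.19 log2 units, while the median over all 197 pairs was 0.32. In cochlear P16 replicates 3 and 4 all 6 lay below, by medians of -0.97 and -1.22, with -0.19 and -0.28 over all pairs. In the SOC, P16 replicate 1 (set B) was above for 7 of 7 members (median 1.29, all 338 pairs 0.00156). P16 replicate 3 (set C) was below for 7 of 7 (-1.01, all pairs -0.00481). SOC P0 replicate 4 (set C) was above for 1 of 7 (-1.66, all pairs -0.0498). These deviations of the 3p arms against their 5p partners came within groups of equal age, so they add to the spread against which the time points were tested.

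**Figure D5:**
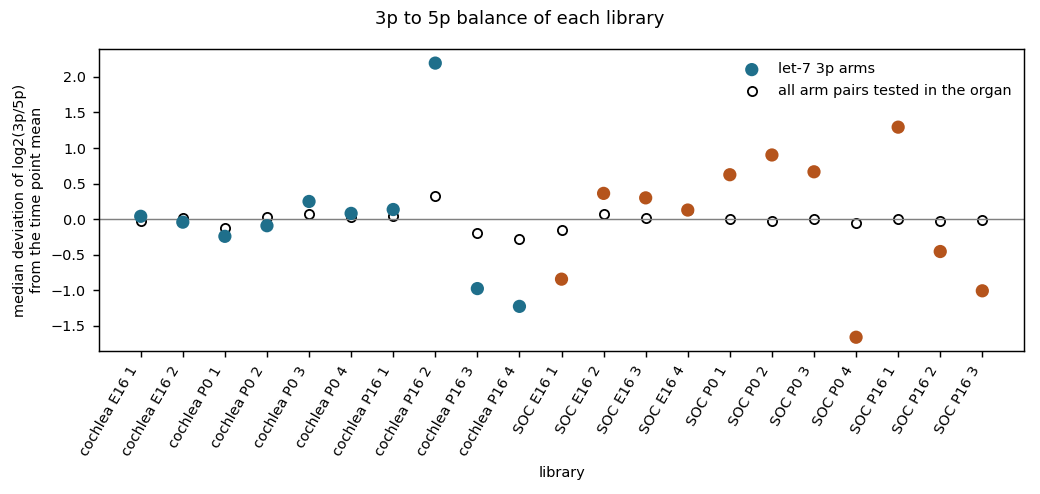
Median deviation of the log2 3p to 5p ratio from the mean of the time point, for each library; filled points are the let-7 members (6 in the cochlea, 7 in the SOC) and open points all hairpins tested in the organ. The members reach 2.19 in cochlear P16 replicate 2 and -1.66 in SOC P0 replicate 4. The medians over all hairpins, which rest on many more pairs, stay between -0.28 and 0.32.

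Other arms of the family and other miRNAs of the same transcripts were counted from lists. Of the other let-7 and miR-98 arms, 6 were listed, and 4 were tested in the cochlea, where from E16 to P16 none rose and miR-98-3p fell. From E16 to P0 let-7a-5p rose and miR-98-3p fell there. In the SOC 5 were tested, and miR-98-5p rose from E16 to P16. miR-98-3p carries the seed UAUACAA of let-7b-3p and went the other way in the cochlea. Of 11 miRNAs encoded on the transcripts of let-7c-1, let-7e and related clusters (the miR-99, miR-100 and miR-125 families), 10 were tested in the cochlea, where miR-125a-5p and miR-125b-5p rose and miR-99a-3p and miR-99b-3p fell from E16 to P16. In the SOC, where all 11 were tested, miR-99a-5p, miR-99b-5p and miR-100-5p fell over the same interval and none rose. Set A was drawn by its miR-99b-5p share and held E16 and P0 libraries but none of P16. The miR-99b-5p fall is therefore not independent of the sets. Its SOC libraries were at 27522 to 215400 CPM at E16 and 13797 to 19709 CPM at P16. The backgrounds for falls from E16 to P16 were 18.6% in the cochlea and 20% in the SOC, as given above. Those for rises were 10.9% and 21.2%. From E16 to P0 in the cochlea, 7.81% of all miRNAs rose and 16.6% fell. Whether these short lists differ from those shares was not tested. For miR-99a, encoded beside let-7c-1, the arm called lower was the 3p arm in the cochlea, on 8 and 12 counts at E16 against 0 at P16, and the 5p arm in the SOC. Cochlear miR-99a-5p, with 0 to 6 counts per library, was not called.

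By profile over the 10 cochlear libraries, the miRNAs most like let-7d-3p, the most abundant member, in log2 level were miR-204-3p (Pearson r 0.973), miR-193b-5p (0.968) and miR-574-3p (0.944). Over the 11 SOC libraries they were miR-346-5p (0.957), miR-1198-5p (0.926) and miR-760-3p (0.883). These values describe likeness across libraries that share age, depth and library set, and no miRNA was among the first 3 in both organs.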

How the data were processed

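Per the labels, small RNA of 10 cochlear and 11 SOC libraries was sequenced, with the SMARTer smRNA-Seq kit for the cochlea and TruSeq Small RNA for the SOC. The authors deposited one table of raw read counts per miRNA, not normalized. The submitters' processing notes name Bowtie2 2.2.5, DESeq2 and mm10. The study's methods describe alignment to MirGeneDB miRNAs, while the table has 1647 miRBase-style names. How multi-matching reads were counted is not given in the sources used here. The members and lists were chosen with earlier results of these data known.

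TMM-normalized CPM and tests came from edgeR 4.0.16 (quasi-likelihood), separately per organ, over miRNAs passing 1 CPM in 2 or more libraries of equal age. 3p to 5p ratios (0.5 counts added to each arm, a mean of at least 20 counts per pair) were tested with limma 3.58.1 (trend). Organ differences were organ-by-time interactions over all 21 libraries. P-values were adjusted by Benjamini-Hochberg. Scripts were tested on simulated data. Sequences and coordinates are RefSeq's (GRCm38.p6). A miRNA's likeness was the Pearson r of log2 levels.

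Results were recomputed with DESeq2 1.42.0, with scaling by library totals or RLE factors, with other filters, with limma on quantile-normalized log2 CPM, one fit of both organs, a replicate block, the SOC set as a covariate, SOC counts thinned to 196885 (the median cochlear total), array weights and each library left out. Same-numbered SOC libraries of E16 and P0 deviated together in all 4 pairs (r 0.251 to 0.490). However, E16 replicate 3 was closer to P0 replicate 2 (r 0.409) than to P0 replicate 3 (r 0.251). Replicates 2 and 3 of both ages are of set A, so these values do not pair libraries by number, and neither do the labels. The replicate block changed no member's call between E16 and P0 of the SOC. Total counts were 124400 to 447419 per cochlear and 8309669 to 18053698 per SOC library. No libraries were copies of each other (smallest chi-square per degree of freedom 5.95). The labels do not say that replicates are separate animals beyond the pooling described, so p-values measure the spread between these samples.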

Additional observations from a re-analysis of the deposited data

Results flagged for a closer look

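Within time points of 4 libraries, 58 sets of values (levels and log2 3p to 5p ratios of the members) were searched for a single library far from the others, a search that flags about 1 in 20 by chance, and 7 were flagged. SOC P0 replicate 4 stood low in the log2 3p to 5p ratio of let-7b (1.017, others 4.865 to 5.219) and of let-7e (-0.9215, others 2.994 to 3.711). SOC E16 replicate 1 stood low in the let-7e ratio (2.839, others 3.524 to 3.621), and SOC E16 replicate 4 in the level of let-7f-1-3p (8.6 CPM, others 11.09 to 11.57). In the cochlea, P0 replicate 3 stood high in the let-7c-1 ratio (-3.202, others -4.835 to -4.644) and P16 replicate 2 in the level of let-7e-3p (872 CPM, others 245.4 to 306.2). let-7g-3p was at 19.49 CPM in cochlear P0 replicate 2, from 4 counts, and at 0 in the other 3.

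The change of let-7b-3p from E16 differed between SOC and cochlea, by -1.916 log2 units at P0 (edgeR FDR 0.0475) and -2.392 at P16 (FDR 0.0149).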

How the results depend on the processing

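Counts of members called moved as follows. In the cochlea, 2 at P0 against E16 became 1 with the replicate block or with all 21 libraries in one fit, and 3 at P16 against E16 became 1 in that fit. Array weights gave 1 ratio call in place of 0 at P0 and 2 in place of 1 at P16. In the SOC, 2 at P16 against E16 became 1 with at least 10 counts in every library or with thinned counts. The 1 from P0 to P16 became 0 with library totals, no filter, the replicate block or thinned counts, and 2 by FDR alone. The 2 SOC ratio calls from E16 to P16 became 1 with no minimum or with the set as covariate, and 0 when thinned. The organ difference at P0 went from 1 to 0 with library totals, no filter, at least 10 counts or the replicate block. At P16 it went from 1 to 3 with DESeq2, 0 with no filter and 2 with the replicate block. Array weights gave 4 ratio differences between organs at P16 in place of 0, in a fit whose weights did not converge fully.

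Leaving out 1 library gave 1 to 3 members for both cochlear contrasts against E16 (1 at P0 without either E16 library, 1 at P16 without E16 replicate 2). Cochlear ratios gave 0 to 3 from E16 to P16 (0 without either E16 library, 2 without P0 replicate 2, 3 without P16 replicate 2) and 0 to 1 from P0 to P16. The SOC gave 2 to 3 from E16 to P16 and 0 to 2 from P0 to P16, and its ratios 1 to 4 (4 without P16 replicate 1) and 0 to 3 (3 without P0 replicate 4). Organ differences ranged from 0 to 1 at P0 and 0 to 4 at P16 (0 without either cochlear E16 library, 4 without SOC P16 replicate 1), and ratio differences at P16 from 0 to 1. The cause was not tested.

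Values were counted for called members and for let-7c-1-3p in the uncalled contrasts of P0 against E16 (cochlea) and P16 against P0 (SOC). Of these values, 294 kept their side of the threshold, 62 lost it and 3 gained it, none reversed. Of 100 other comparisons not called, 40 changed sign and 20 were called in at least 1 alternative, and 0 had an opposite sign with an FDR under 0.05. Outside E16 and P0 of the SOC, same-numbered libraries did not deviate together throughout (r -0.601 to 0.548). The replicate block changed no further count by over 1.5 times. Low counts limit what can be said of let-7f-2-3p in both organs and of let-7g-3p in the cochlea.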
